A study of Homo sapiens with 8 samples.

Results

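The genes described here are 49 ligands and receptors of axon guidance, taken by symbol from the 60332 rows of a gene expression table of SK-N-MC, a cell line long established from a Ewing sarcoma. They comprise 14 semaphorins, 7 plexins, 2 neuropilins, 8 ephrins, 8 Eph receptors, 3 slits, 2 robo receptors, 2 netrins and 3 netrin receptors (DCC, UNC5B and NEO1), and each symbol matched 1 row. RNA was sequenced in 8 libraries, 2 in each of 4 groups: control cells in normoxia, and control, eKD1 and eKD2 cells in hypoxia. All cells carried a lentivirus that encodes dCas9-KRAB, a Cas9 without cutting activity joined to a repressor domain, introduced at a multiplicity of infection of 10, selected with 1 µg/ml puromycin for 3 days and used within 5 passages. The control virus was empty, whereas eKD1 and eKD2 cells received guides, a different one for each, against the GGAA repeat enhancer of LOXHD1. Hypoxia was 1% oxygen for 16 h, and eKD cells in normoxia are not analysed here, so the eKD comparisons were all made within hypoxia. The replicates are described as biological duplicates, and no source used here says whether they came from separate infections.

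Axon guidance cues are secreted or membrane-bound proteins that steer growing nerve fibres by attraction or repulsion, and the same families act in blood vessel growth, cell migration and tissue boundaries. Semaphorins signal through plexins, and the secreted class 3 semaphorins usually need a neuropilin as co-receptor. Ephrins are bound to the cell surface and signal by contact with Eph receptor tyrosine kinases, with A ephrins tethered by a lipid anchor and B ephrins spanning the membrane. Slits are secreted ligands of robo receptors, and netrins act through DCC, neogenin (NEO1) and the UNC5 receptors.

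Levels are given in FPKM, which divides the fragments of a gene by its transcript length and by the size of the library. Genes may thus be compared within a library. Comparison between libraries rests on the scaling applied, which is not given in the sources used here. The FPKM totals of the 8 libraries lay between 865107 and 1041457. The absolute depth is unknown, and the relative depth, read from the low values with replicate 1 of control hypoxia set to 100%, was lowest at 55.7% in replicate 2 of control normoxia. LOXHD1, the targeted gene, stood at 156 and 169 FPKM in control normoxia and at 93.0 and 91.1 in control hypoxia. In eKD1 it stood at 17.3 and 15.0 FPKM, and in eKD2 at 11.7 and 11.8, below every control library. CA9, a carbonic anhydrase that is a standard hypoxia marker, was listed at 0 in both normoxic libraries and stood between 56.9 and 82.8 FPKM in the 6 hypoxic ones. All 7 Ewing sarcoma markers examined (CD99, NKX2-2, STEAP1, NR0B1, PRKCB, LIPI and FLI1) were at or above 1 FPKM in every library, but their levels were not steady, with 5 called lower and 1 higher in hypoxia, none called in eKD1, and 2 called higher and 1 lower in eKD2 against control hypoxia. Of 11 markers of other cell types, 10 were found by symbol, 3 (CD3E, KRT5 and MYOG) were at 0 in all libraries, and 4 (PTPRC, EPCAM, COL1A1 and DCN) were at or above 1 FPKM in all. The summed level of those markers was 198 to 201 FPKM in control normoxia, 207 to 212 in control hypoxia, 223 to 235 in eKD1 and 207 to 218 in eKD2, and COL1A1 was called higher in hypoxia. PTPRC, a leukocyte marker, stood at 22.5 and 23.8 FPKM in control normoxia, 4.87 and 5.39 in control hypoxia, 10.0 and 9.59 in eKD1 and 14.3 and 13.5 in eKD2, called lower in hypoxia and higher in eKD2 against control hypoxia (limma adjusted p = 0.00684 and 0.0287). The part of these markers in the results was not tested. In bulk RNA, a change in the share of cells that express a gene cannot be told apart from a change in its RNA per cell.

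Of the 49 genes, 37 reached 1 FPKM in at least 2 of the 8 libraries and were tested, and 32 reached it in all 8. The 12 genes that were not tested stayed under 1 FPKM in every library, with 0.790 as their highest value. They were SEMA3A, SEMA3D, SEMA5A, SEMA7A, PLXNA2, PLXNC1, EFNA2, EFNB2, EPHB2, SLIT1, SLIT3 and NTN4, and SEMA5A and SLIT3 were listed at 0 in all 8. The 5 genes tested that fell under 1 FPKM in some library were SEMA4F, SEMA6B, SEMA6D, NRP2 and DCC. These include genes that passed the filter through one condition alone, such as SEMA6B, whose only values above 1 FPKM came from hypoxic libraries.

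The highest levels belonged to receptors. PLXND1, a plexin receptor with a known part in vessel patterning, ranged from 138 to 165 FPKM, PLXNB2 from 126 to 196 and the Eph receptor EPHB3 from 134 to 165, and these were the 3 genes with a mean of at least 100 FPKM. A further 18 genes had a mean between 10 and 100 FPKM and 16 between 1 and 10. Among the ephrins, the ligand EFNB1 was the highest on average, at 47.1 to 62.7 FPKM. SEMA3C led the semaphorins among the 49 genes, at 18.0 to 39.9 FPKM. SEMA5B, a semaphorin outside the 49, stood higher, at 66.6 to 107 FPKM. ROBO1 accounted for 86.0% of the summed robo level, NEO1 for 65.0% of the netrin receptor level, and SLIT2 for 98.0% of the slit level. Ligands were lower than the receptors of their own family in sum: ephrins together came to 122 and 122 FPKM in control normoxia against 309 and 318 for Eph receptors, and semaphorins to 89.2 and 86.6 against 387 and 379 for plexins. These sums are descriptions of the 49 genes and were not tested. The semaphorin sum leaves out SEMA5B, which was at 106 and 107 FPKM in control normoxia.

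**Figure D1:**
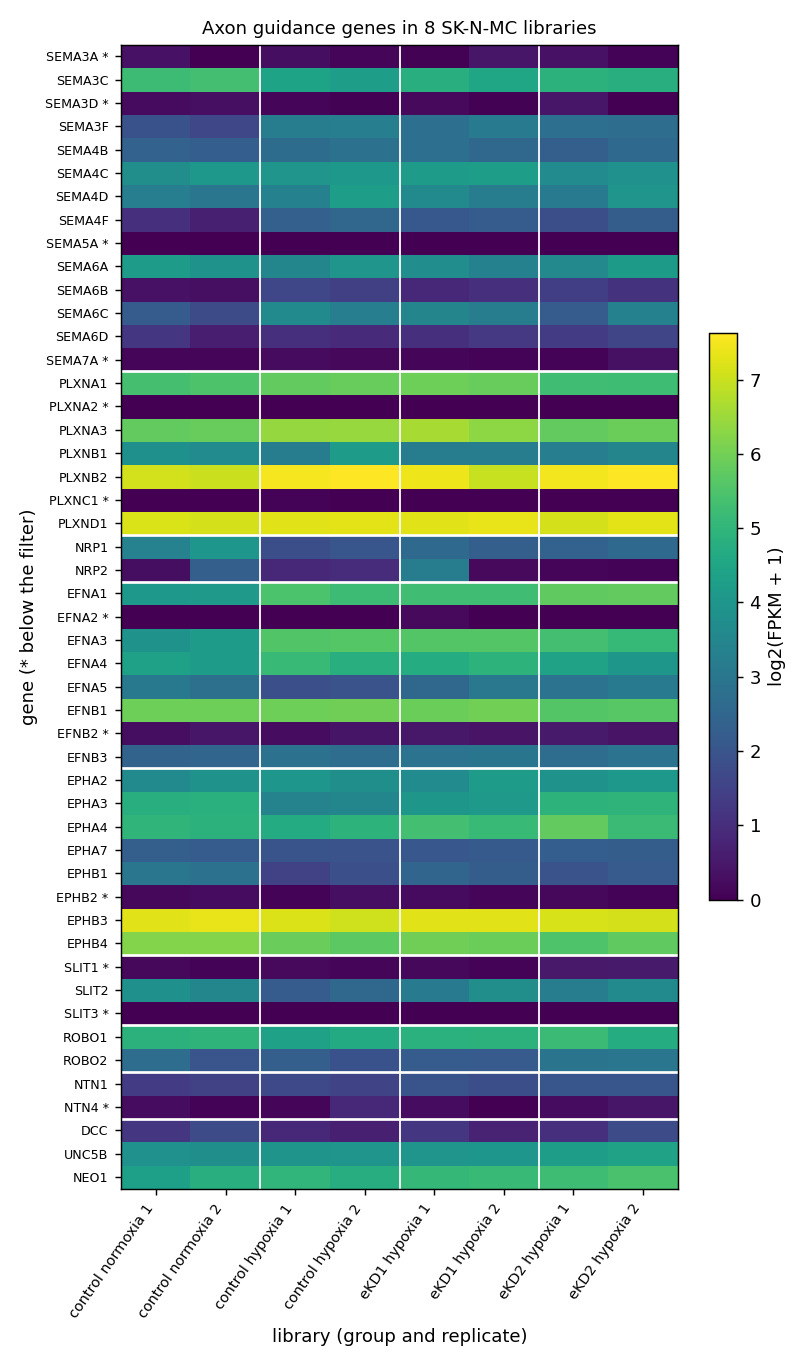
Levels of the 49 genes as log2(FPKM + 1), with 1 row per gene grouped by family and 1 column per library grouped by condition. PLXNB2, PLXND1 and EPHB3 are the brightest rows, in yellow, and the 12 genes that stayed under 1 FPKM, marked with an asterisk, are dark purple.

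Duplicates of a group were close for most genes, with a median ratio of the larger to the smaller value of 1.15 over the 37 genes and 4 groups. In 5 genes the ratio reached 2 in at least 1 group (NRP2, SEMA6C, SEMA6D, DCC and PLXNB1). NRP2, a neuropilin that binds SEMA3F and SEMA3C, was the extreme case. It read 0.220 and 3.92 FPKM in control normoxia, 0.788 and 0.965 in control hypoxia, 8.44 and 0.146 in eKD1, and 0.0649 and 0.0484 in eKD2. The duplicates thus differed 17.8-fold in control normoxia and 57.8-fold in eKD1, and no direction is read from this gene in those groups.

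The first comparison asked which of these genes differed between control cells in normoxia and in hypoxia. The ephrin ligands EFNA1, EFNA3 and EFNA4 rose in hypoxia, while the ephrin EFNA5 and the Eph receptors EPHA3, EPHB1 and EPHB4 fell. Of 5 plexins tested, PLXNA1, PLXNA3 and PLXNB2 rose, as did 4 semaphorins, whereas SEMA3C, NRP1 and SLIT2 fell. In all, 17 of the 37 genes tested, or 45.9%, were called by limma at an adjusted p under 0.05. The share of all 15372 genes tested that were called in the same fit was 32.2%. It was 42.6% when only protein-coding genes were tested, as the members are, and 17 of the 37 were again called. Of the 17 in the fit of all 15372 genes, 10 were higher in hypoxia, where 16.2% of all genes were called, and 7 were lower, where 16% of all genes were called. At an unadjusted p under 0.05, 20 of the 37 passed, with 45.9% of all genes. Both hypoxic libraries were above both normoxic ones in 17 of the 37 genes, with 35.9% of all genes in that state, and below both in 11, with 34.5% of all genes. The median log2 change, on the log2(FPKM + 1) scale used throughout for changes, was 0.11 over the 37 genes and 0.01 over all genes. Ligands numbered 18 of the genes tested, of which 7 rose and 3 fell. Of the 17 receptors other than neuropilins, 3 rose and 3 fell. Rescaling the libraries to equal FPKM totals shifted the median of all genes to -0.19. In that fit 7 of the 37 genes were called higher and 9 lower, with 35.8% of all genes called. Of the 5510 genes called there, 1566 were higher, so the tilt to lower was shared by all genes.

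**Figure D2:**
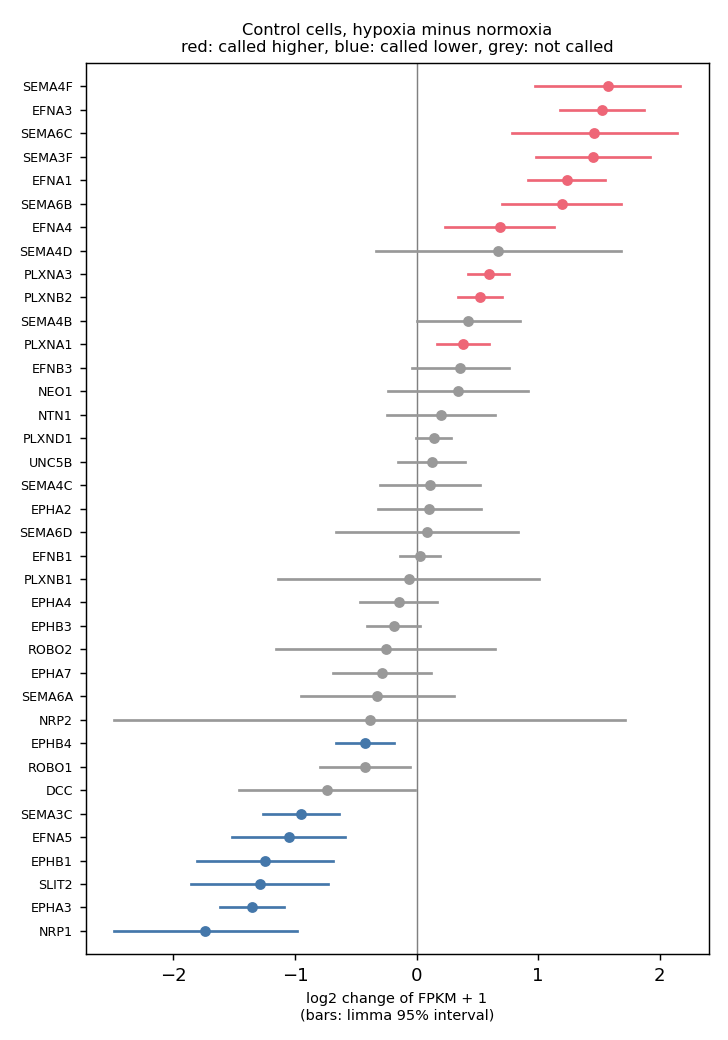
Log2 change of FPKM + 1 between hypoxia and normoxia in control cells for the 37 genes tested, ordered by size, with limma 95% intervals as bars. The 10 genes called higher are in red, the 7 called lower in blue, and the other 20 in grey.

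Among the ephrins, EFNA1, EFNA3 and EFNA4 are ligands of A-type Eph receptors and lie next to each other on the plus strand of chromosome 1. In GRCh37 coordinates, EFNA4 spans chr1:155036213-155042029, EFNA3 chr1:155051313-155060014 and EFNA1 chr1:155100352-155107375. An annotated readthrough gene, EFNA4-EFNA3, shares 43.9% of the exon bases of EFNA3 and 15.0% of those of EFNA4, so the split of reads between the latter genes is uncertain, while EFNA1 shares no exon bases with another gene. The promoter windows of the 3 neighbours are shown because they rose together. Each runs from 250 bases before to 50 after the start of the gene in RefSeq on GRCh38.p14, 5′ to 3′, and capitals mark ACGTG or GCGTG on either strand, the short core sequence that hypoxia-inducible factors are known to bind.
EFNA4, chr1:155063490-155063789, plus strand: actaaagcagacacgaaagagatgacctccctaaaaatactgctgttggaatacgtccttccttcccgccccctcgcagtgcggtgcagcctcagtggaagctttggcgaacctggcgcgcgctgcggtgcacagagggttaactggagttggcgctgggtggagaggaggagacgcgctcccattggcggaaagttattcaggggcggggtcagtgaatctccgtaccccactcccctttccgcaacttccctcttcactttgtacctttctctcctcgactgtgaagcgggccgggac
EFNA3, chr1:155078587-155078886, plus strand: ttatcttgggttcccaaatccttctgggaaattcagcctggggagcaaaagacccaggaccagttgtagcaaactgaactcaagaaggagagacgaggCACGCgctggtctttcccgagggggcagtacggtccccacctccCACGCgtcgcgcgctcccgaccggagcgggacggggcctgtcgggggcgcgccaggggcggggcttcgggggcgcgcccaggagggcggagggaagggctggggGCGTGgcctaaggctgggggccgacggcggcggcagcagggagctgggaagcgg
EFNA1, chr1:155127626-155127925, plus strand: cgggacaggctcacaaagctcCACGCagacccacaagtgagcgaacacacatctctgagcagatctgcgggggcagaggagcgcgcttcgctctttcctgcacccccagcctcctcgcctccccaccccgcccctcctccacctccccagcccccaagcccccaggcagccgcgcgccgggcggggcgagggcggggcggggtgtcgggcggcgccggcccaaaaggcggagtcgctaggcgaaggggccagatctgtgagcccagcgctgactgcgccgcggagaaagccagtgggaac

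These letters occurred at 3 places in the EFNA3 window, at 1 in the EFNA1 window and at none in the EFNA4 window. EFNA3 stood at 14.2 and 17.2 FPKM in control normoxia and at 46.1 and 47.6 in control hypoxia. Both hypoxic libraries lay far above both normoxic ones, a 2.99-fold difference in mean (log2 change 1.53, SE 0.122, limma adjusted p = 0.00837). EFNA1 was at 15.9 and 16.5 FPKM in normoxia and at 42.7 and 36.3 in hypoxia, again without overlap and 2.44-fold higher (log2 change 1.23, SE 0.113, limma adjusted p = 0.00941). EFNA4 was at 19.7 and 17.1 FPKM and then at 33.9 and 26.8, and it was the call nearest the threshold among the 17 (log2 change 0.68, SE 0.158, limma adjusted p = 0.0451). With equal FPKM totals EFNA4 was no longer called (adjusted p = 0.0934). EFNA5, whose product is best known for repelling retinal axons, went the other way. It fell from 7.45 and 6.08 FPKM to 2.60 and 2.86, lower in both libraries (log2 change -1.05, SE 0.165, limma adjusted p = 0.0211). The B ephrins were not called: EFNB1 stood at 60.0 and 59.9 FPKM and then at 60.4 and 61.8 (log2 change 0.03, 95% interval -0.14 to 0.19), and EFNB3 at 4.33 and 4.55 and then at 6.39 and 5.58 (log2 change 0.36, 95% interval -0.04 to 0.76).

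None of the 7 Eph receptors tested was called higher, and 3 were called lower, beside 16.2% and 16% of all genes called in those directions. EPHA3, a receptor with high affinity for EFNA5, lies on the plus strand of chromosome 3 (GRCh37, chr3:89156771-89531284) and shares no exon bases with another annotated gene. Its promoter window is shown because it was the member with the smallest p in each of the 4 comparisons.
EPHA3, chr3:89107371-89107670, plus strand: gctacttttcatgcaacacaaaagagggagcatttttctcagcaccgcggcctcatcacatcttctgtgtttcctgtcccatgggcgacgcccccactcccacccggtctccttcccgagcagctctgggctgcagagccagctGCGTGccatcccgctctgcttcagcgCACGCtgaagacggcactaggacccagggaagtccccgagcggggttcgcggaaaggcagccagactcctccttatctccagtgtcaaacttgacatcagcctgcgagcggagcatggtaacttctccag

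The letters in capitals occurred at 2 places in this window. EPHA3 was at 26.9 and 27.4 FPKM in control normoxia and at 9.71 and 10.4 in control hypoxia. Hypoxic levels were 37.0% of the normoxic ones, with duplicates that differed by under 1 FPKM (log2 change -1.35, SE 0.0931, limma adjusted p = 0.00801). EPHB1, a receptor for B ephrins, fell from 6.93 and 6.24 FPKM to 1.80 and 2.65 (log2 change -1.24, SE 0.198, limma adjusted p = 0.0218). EPHB4, the receptor of EFNB2 and a marker of venous endothelium during development, fell by less, from 73.4 and 72.6 FPKM to 57.5 and 51.0 (log2 change -0.42, SE 0.0836, limma adjusted p = 0.0327). EPHB3, the most abundant Eph receptor, was at 155 and 165 FPKM and then at 148 and 134, below normoxia in both libraries but not called (log2 change -0.19, 95% interval -0.41 to 0.03). EPHA2, EPHA4 and EPHA7 were not called either, with log2 changes from -0.28 to 0.11. In sum, Eph receptors came to 260 and 243 FPKM in control hypoxia, below the 309 and 318 of normoxia, and ephrins to 192 and 181, above the 122 and 122 of normoxia.

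**Figure D3:**
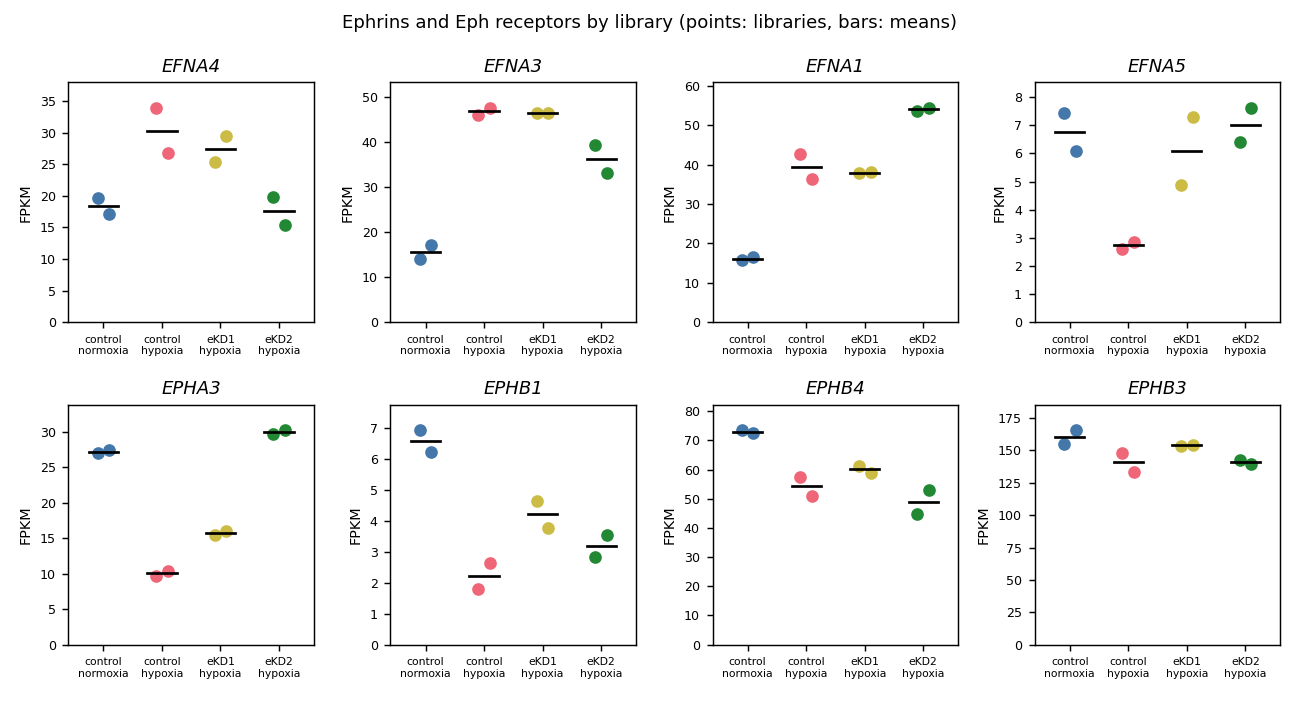
FPKM of ephrins and Eph receptors in each library, with 1 panel per gene, points for libraries and bars for the mean of the 2 libraries of a group. EPHA3 is high in control normoxia and eKD2, between 26.9 and 30.2 FPKM, low in control hypoxia at 9.71 and 10.4, and between them in eKD1 at 15.4 and 16.0.

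Of the 10 semaphorins tested, 4 rose and 1 fell, beside the 16.2% of all genes called higher and the 16% called lower. SEMA3F, a secreted repellent that signals through NRP2 and A-type plexins, stood at 2.77 and 2.10 FPKM in control normoxia and at 8.20 and 8.52 in control hypoxia, 3.44-fold higher (log2 change 1.45, SE 0.166, limma adjusted p = 0.0123). SEMA3C, a secreted semaphorin that acts in heart outflow tract development, went from 36.3 and 39.9 FPKM to 20.5 and 18.0 (log2 change -0.95, SE 0.11, limma adjusted p = 0.0126). The 2 secreted ligands thus moved in opposite directions, and SEMA3C was still the more abundant in hypoxia.

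The other 3 that rose are membrane-bound semaphorins at low levels. SEMA6C was at 3.62 and 2.44 FPKM in normoxia and at 11.5 and 8.63 in hypoxia (log2 change 1.46, limma adjusted p = 0.0231). SEMA4F was at 1.07 and 0.592 FPKM and then at 4.08 and 4.74 (log2 change 1.57, limma adjusted p = 0.0161). SEMA6B was at 0.293 and 0.240 FPKM and then at 2.09 and 1.71 (log2 change 1.19, limma adjusted p = 0.0184). It passed the filter only through hypoxic libraries, where it is high, so its call is not independent of the filter. All were higher in both hypoxic libraries, and because 1 FPKM was added before taking logs, the log2 changes of SEMA4F and SEMA6B understate their ratios of means, 5.29 and 7.14. SEMA4B, SEMA4C, SEMA4D, SEMA6A and SEMA6D were not called, with log2 changes from -0.32 for SEMA6A to 0.67 for SEMA4D. SEMA4D, an activating ligand of PLXNB1, read 8.66 and 6.92 FPKM in normoxia but 9.21 and 18.0 in hypoxia, so that its hypoxic duplicates differed by more than the normoxic mean.

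Plexins and neuropilins are the receptors of these ligands. PLXNA3, a receptor for class 3 semaphorins, went from 54.8 and 56.8 FPKM to 83.5 and 85.8 (log2 change 0.59, SE 0.0594, limma adjusted p = 0.0103). PLXNA1, of the same class, went from 40.6 and 43.7 FPKM to 53.9 and 56.5 (log2 change 0.38, SE 0.0748, limma adjusted p = 0.0326). PLXNB2, a receptor for class 4 semaphorins, went from 135 and 128 FPKM to 182 and 196 (log2 change 0.52, SE 0.0639, limma adjusted p = 0.014). Each of these 3 receptors was higher in both hypoxic libraries, by 1.31 to 1.52-fold in mean. With equal FPKM totals PLXNA1 and PLXNB2 were no longer called (adjusted p = 0.221 and 0.0552). PLXND1, at 143 and 139 FPKM and then 153 and 158, was not called (log2 change 0.14, 95% interval -0.01 to 0.29), nor was PLXNB1, which read 13.2 and 11.8 FPKM and then 8.10 and 17.3.

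NRP1, a co-receptor for class 3 semaphorins and for VEGF, had the largest fall of the 37 genes. It stood at 9.30 and 14.9 FPKM in control normoxia and at 2.59 and 3.11 in control hypoxia (log2 change -1.74, SE 0.267, limma adjusted p = 0.0204). The normoxic duplicates differed by 1.60-fold, and both were well above the hypoxic ones. VEGFA, a ligand of NRP1 and itself a hypoxia-regulated gene, rose from 45.3 and 40.5 FPKM to 186 and 168, while HIF1A mRNA fell from 104 and 116 FPKM to 33.3 and 39.0.

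**Figure D4:**
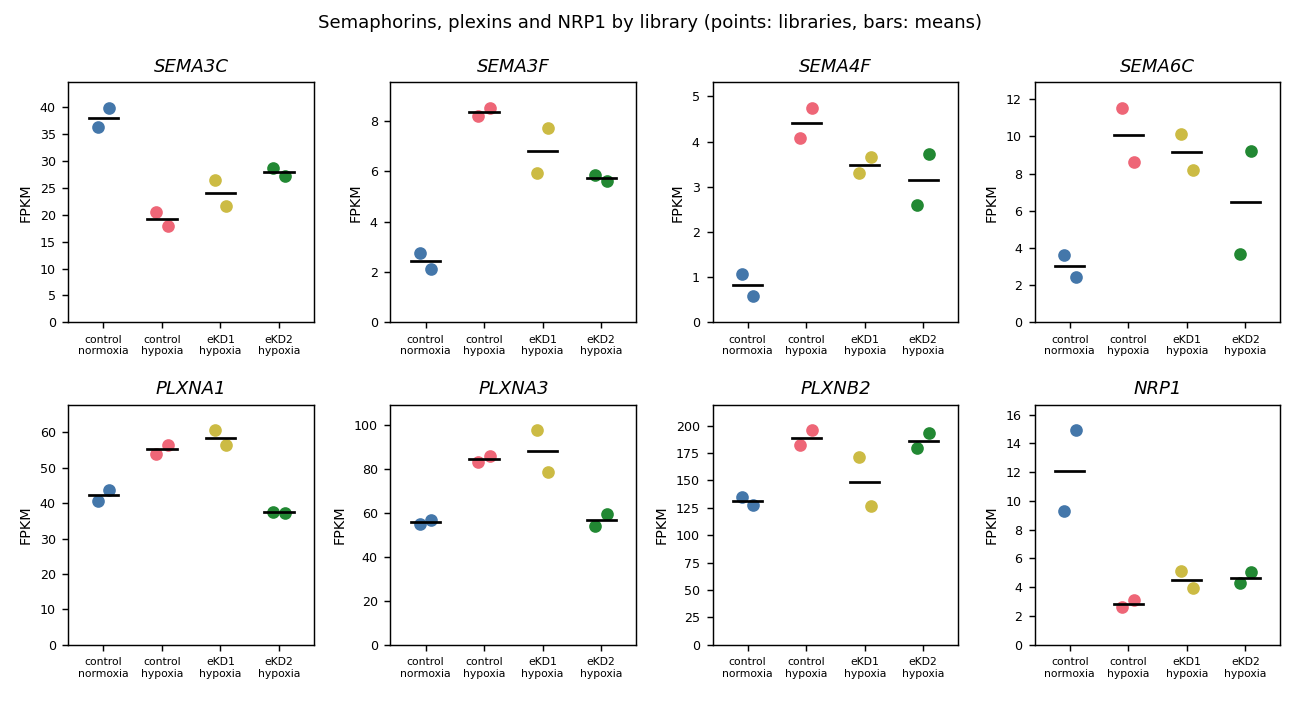
FPKM of semaphorins, plexins and NRP1 in each library, with 1 panel per gene, points for libraries and bars for the mean of the 2 libraries of a group. PLXNA1 and PLXNA3 are higher in control hypoxia and eKD1 than in control normoxia and eKD2, and NRP1 is highest in control normoxia, at 9.30 and 14.9 FPKM.

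In the slit and robo system, SLIT2, a secreted repellent, fell from 13.2 and 10.4 FPKM to 3.67 and 4.80 (log2 change -1.29, SE 0.2, limma adjusted p = 0.0207). Its receptor ROBO1 read 28.7 and 30.2 FPKM in normoxia and 19.5 and 24.0 in hypoxia, lower in both libraries but not called (log2 change -0.43, SE 0.131, limma adjusted p = 0.0815). ROBO2 overlapped between the groups. In the netrin system no gene of the 49 was called, while NTNG2, a netrin relative outside the 49, is given below. The ligand NTN1 was at 1.58 and 1.75 FPKM and then at 2.19 and 1.94, and the receptors UNC5B and NEO1 had log2 changes of 0.13 and 0.34. DCC, a receptor through which netrin attracts axons, was at 1.33 and 2.39 FPKM in normoxia and at 0.783 and 0.589 in hypoxia (log2 change -0.74, limma adjusted p = 0.104).

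Without a filter on low values, 8 of the 17 were called, with 11.1% of all genes then tested, and fits of the 2 groups without any 1 of the 4 libraries called none of the 15372 genes. Leaving out 1 library could not turn the direction of the 17 changes, since the duplicates of the 2 groups did not overlap in any of them.

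The next comparisons asked whether the genes differed between control and eKD cells in hypoxia. They share the control hypoxia libraries with each other and with the comparison above, so that a high or low value in those libraries enters all 3, and the levels in the 4 groups are therefore given side by side. In eKD1, 0 of the 37 genes were called by limma at an adjusted p under 0.05, with 0.0651% of all genes called in the same fit (0.013% higher and 0.052% lower). An unadjusted p under 0.05 was reached by 7 of the 37, with 21.7% of all genes. Both eKD1 libraries were above both control libraries in 16 genes, with 27.6% of all genes in that state, and below both in 4, with 26% of all genes. The median log2 change was 0.09 over the 37 genes and 0.00 over all genes.

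The 2 genes with the smallest p in each direction were EPHA3 and EFNA5, higher in eKD1, and SEMA6B and PLXNB2, lower in eKD1. EPHA3 was at 15.4 and 16.0 FPKM in eKD1 against 9.71 and 10.4 in control hypoxia, 1.56-fold higher (log2 change 0.60, 95% interval 0.30 to 0.89, limma adjusted p = 0.12). With a spread shared by all 8 libraries EPHA3 was the 1 gene of the 37 called (adjusted p = 0.0224), with 4.95% of all genes called. EFNA5 was at 4.89 and 7.31 FPKM against 2.60 and 2.86 (log2 change 0.91, 95% interval 0.26 to 1.55, limma adjusted p = 0.162). SEMA6B was at 0.806 and 1.09 FPKM against 2.09 and 1.71 (log2 change -0.57, limma adjusted p = 0.201). PLXNB2 was at 171 and 126 FPKM against 182 and 196 (log2 change -0.36, limma adjusted p = 0.319). The duplicates did not overlap between the groups in any of the 4.

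In eKD2, EPHA3 and EFNA5 were higher than in control hypoxia and PLXNA1 and PLXNA3 lower. These were 4 of the 37 genes, or 10.8%, a share near the 9.61% of all genes called in the same fit. They divided into 2 higher and 2 lower, with 5.8% and 3.81% of all genes called in those directions. At an unadjusted p under 0.05, 18 of the 37 passed, with 32.8% of all genes. Both eKD2 libraries were above both control libraries in 16 genes, with 35.8% of all genes in that state, and below both in 11, with 26.4% of all genes. The median log2 change was 0.02 over the 37 genes and 0.05 over all genes.

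EPHA3 stood at 29.6 and 30.2 FPKM in eKD2, against 9.71 and 10.4 in control hypoxia and 26.9 and 27.4 in control normoxia. The level in eKD2 was 2.98-fold that of control hypoxia (log2 change 1.49, SE 0.0879, limma adjusted p = 0.0273). EFNA5, on the minus strand of chromosome 5 (GRCh37, chr5:106712595-107006638), was at 6.42 and 7.61 FPKM in eKD2, against 2.60 and 2.86 in control hypoxia and 7.45 and 6.08 in control normoxia. It was 2.57-fold the level of control hypoxia (log2 change 1.10, SE 0.151, limma adjusted p = 0.0379). Receptor and ligand were thus both higher in eKD2 than in control hypoxia. The difference of eKD2 from control normoxia was not tested. Both eKD2 libraries lay above both normoxic ones for EPHA3, and the libraries overlapped for EFNA5.

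PLXNA1 was at 37.6 and 37.1 FPKM in eKD2, against 53.9 and 56.5 in control hypoxia and 40.6 and 43.7 in control normoxia (log2 change from control hypoxia -0.55, SE 0.0633, limma adjusted p = 0.0331). PLXNA3 was at 54.2 and 59.6 FPKM, against 83.5 and 85.8 in control hypoxia and 54.8 and 56.8 in control normoxia (log2 change from control hypoxia -0.57, SE 0.0722, limma adjusted p = 0.0359). In eKD1 the same receptors were at 60.6 and 56.4 FPKM for PLXNA1 and at 97.7 and 78.6 for PLXNA3, overlapping with control hypoxia. The third plexin that had risen in hypoxia, PLXNB2, was at 180 and 193 FPKM in eKD2 and overlapped with control hypoxia (log2 change -0.02, 95% interval -0.21 to 0.17).

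The other genes called in hypoxia were not called between eKD2 and control. EFNA1 was at 53.7 and 54.4 FPKM in eKD2 and at 37.9 and 38.1 in eKD1, against 42.7 and 36.3 in control hypoxia (eKD2 log2 change 0.45, limma adjusted p = 0.0753). Its neighbours lay on the other side, EFNA3 at 39.4 and 33.3 FPKM in eKD2 and EFNA4 at 19.8 and 15.4, both below both control libraries (log2 changes -0.36 and -0.75, limma adjusted p = 0.114 and 0.0891). In eKD1, EFNA3 was at 46.6 and 46.6 FPKM and EFNA4 at 25.4 and 29.6. SLIT2 was at 8.18 and 11.6 FPKM in eKD2 and at 7.87 and 12.7 in eKD1, above both control hypoxia libraries in each (log2 changes 1.04 and 1.08, limma adjusted p = 0.0724 and 0.167). SEMA3C was at 28.8 and 27.3 FPKM in eKD2 and at 26.6 and 21.7 in eKD1. NRP1 was at 4.28 and 5.03 FPKM in eKD2 and at 5.09 and 3.92 in eKD1, above control hypoxia and below control normoxia in all 4 libraries. EPHB1 was at 2.84 and 3.55 FPKM in eKD2 and at 4.66 and 3.76 in eKD1, and EPHB4 at 44.7 and 52.9 and at 61.2 and 59.0. SEMA3F was at 5.84 and 5.61 FPKM in eKD2 and at 5.92 and 7.74 in eKD1, lower than control hypoxia in all 4 libraries. SEMA4F read 2.59 and 3.73 FPKM in eKD2 and 3.31 and 3.67 in eKD1, SEMA6B 1.65 and 1.15 in eKD2, and SEMA6C 3.67 and 9.23 in eKD2 and 10.1 and 8.20 in eKD1. The eKD2 duplicates of SEMA6C differed by 2.52-fold, and the gene was not called (log2 change -0.67, 95% interval -1.95 to 0.61).

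The number called in eKD2 moved with the fit. It was 11 when only protein-coding genes were tested, with 20.1% of all those genes called, and 9 with a spread shared by all 8 libraries, with 16.9% of all genes called, but 0 with no variance trend, and 0 without any 1 of the 4 libraries, where no gene of the 15372 was called. Over all alternatives run, the log2 change lay between 1.42 and 1.58 for EPHA3 and between 0.99 and 1.33 for EFNA5. It lay between -0.61 and -0.45 for PLXNA1 and between -0.63 and -0.46 for PLXNA3. With equal FPKM totals the split was 4 higher and 2 lower, with 12.4% of all genes called. Of the 1908 genes called in that fit, 1478 were higher.

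**Figure D5:**
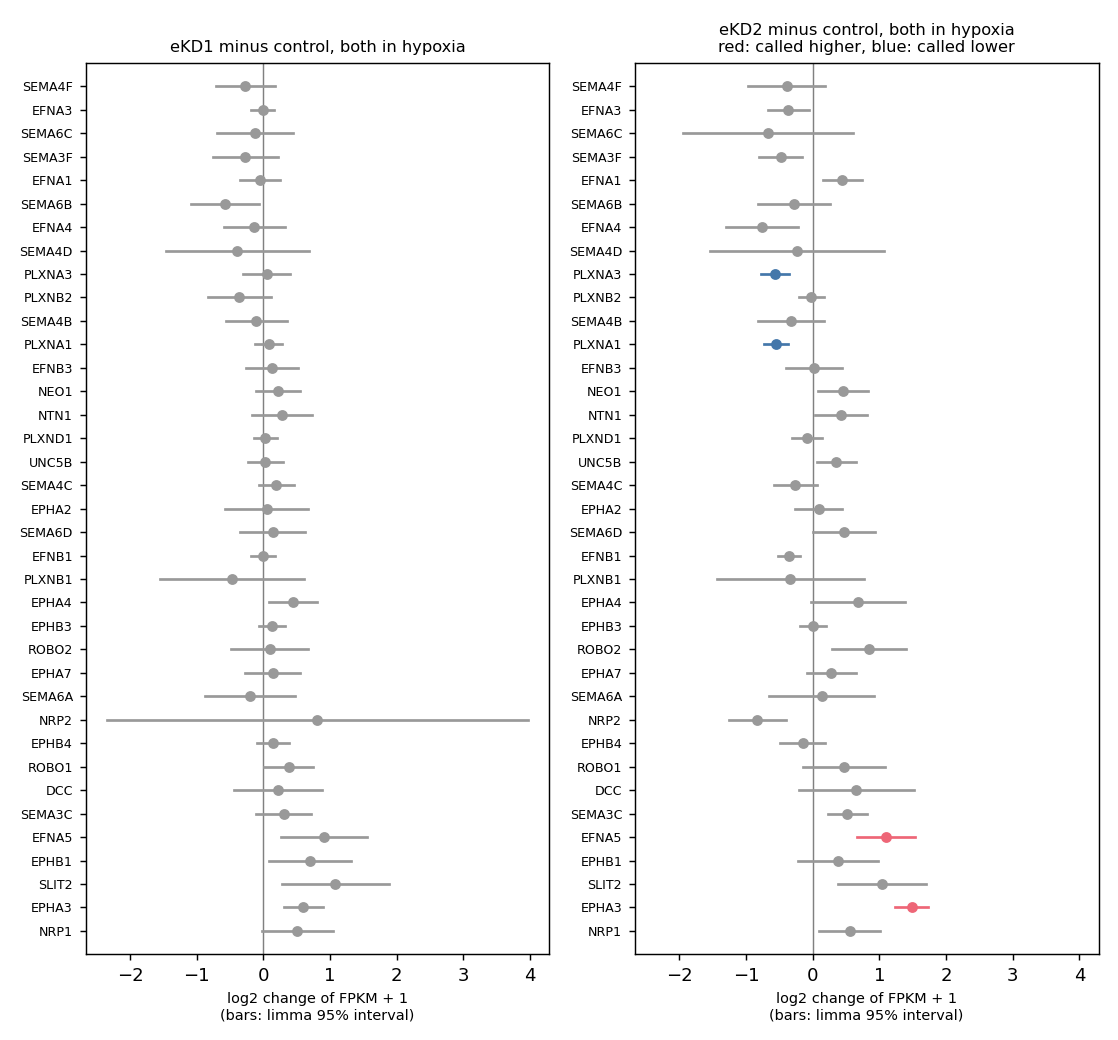
Log2 change of FPKM + 1 in hypoxia between eKD1 and control and between eKD2 and control, for the 37 genes tested, with limma 95% intervals as bars. EPHA3, EFNA5, PLXNA1 and PLXNA3 are the 4 genes called in eKD2, and none is called in eKD1.

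Whether the guides differed was asked by comparing eKD2 with eKD1 directly. By limma at an adjusted p under 0.05, 0 of the 37 genes were called, with 0.403% of all genes called (0.286% higher and 0.117% lower in eKD2). An unadjusted p under 0.05 was reached by 10, with 23.6% of all genes. Both eKD2 libraries were above both eKD1 libraries in 12 genes, with 31.9% of all genes in that state, and below both in 11, with 23.3% of all genes. The smallest p-values belonged to EPHA3, at 29.6 and 30.2 FPKM in eKD2 and 15.4 and 16.0 in eKD1 (log2 difference 0.89, 95% interval 0.65 to 1.13, limma adjusted p = 0.0662), and EFNA1, at 53.7 and 54.4 FPKM against 37.9 and 38.1 (log2 difference 0.50, 95% interval 0.32 to 0.67, limma adjusted p = 0.0784). In the other direction they belonged to PLXNA1, at 37.6 and 37.1 FPKM against 60.6 and 56.4 (log2 difference -0.63, 95% interval -0.84 to -0.43, limma adjusted p = 0.0779), and EFNB1, at 47.1 and 48.5 FPKM against 58.9 and 62.7 (log2 difference -0.34, 95% interval -0.54 to -0.14, limma adjusted p = 0.114). These intervals, which are not adjusted for the number of genes, leave out 0, whereas the adjusted p-values miss the threshold. With a spread shared by all 8 libraries, 5 genes were called (these 4 and PLXNA3), where 9.05% of all genes were called. With protein-coding genes only it was 3 (EPHA3, PLXNA1 and EFNA1), with 4.48% of all genes, and with no filter 2 (EPHA3 and EFNA1), with 0.957%. Calls are not read from fits with 1 library left out, which leave a lone library in its group.

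Other genes of the same pathways were examined from lists of 23 further family members, 45 intracellular mediators and 21 surface partners and proteases. In hypoxia, 3 of the 12 further family members tested rose and 2 fell, 9 of the 40 mediators tested rose and 5 fell, and 6 of the 17 surface genes tested rose and 2 fell, with median log2 changes of 0.21, 0.19 and 0.27. In all, 41.7%, 35.0% and 47.1% of the genes tested from these lists were called, beside the 32.2% of all genes given above. The share was 42.6% in the fit of protein-coding genes only. NTNG2, a membrane-anchored netrin relative, was at 0.117 and 0.0318 FPKM in control normoxia and at 3.30 and 3.92 in control hypoxia (log2 change 2.10, limma adjusted p = 0.00852). It reached 1 FPKM only in the control hypoxia libraries and so passed the filter through the group where it is high. SDC3, the heparan sulfate proteoglycan syndecan 3, went from 3.55 and 3.07 FPKM to 12.1 and 14.7 (log2 change 1.73, limma adjusted p = 0.00944), and RRAS, a small GTPase on which plexins act, from 15.3 and 14.6 to 48.8 and 45.3 (log2 change 1.59, limma adjusted p = 0.00665). SEMA4G, ROBO3 and the glypican GPC1 rose by 1.34, 1.13 and 1.10 on the log2 scale.

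In eKD1 none of the 3 lists held a called gene. In eKD2, 1 of the 12 further family members tested rose and 1 fell, 7 of the 40 mediators rose and 1 fell, and 2 of the 17 surface genes rose, with 5.8% of all genes called higher and 3.81% lower. NTNG2, which was tested only because of its values in control hypoxia, was at 0.655 and 0.812 FPKM in eKD2 (log2 change from control hypoxia -1.41, limma adjusted p = 0.0331), and at 0.171 and 0.862 in eKD1, where it was not called (adjusted p = 0.12). MET, the HGF receptor, which associates with B plexins, was at 17.5 and 19.2 FPKM in eKD2 against 7.83 and 6.93 in control hypoxia (log2 change 1.20, limma adjusted p = 0.0305). Between eKD2 and eKD1, FYN was the 1 listed gene called. This Src family kinase, which acts downstream of semaphorin, ephrin and netrin receptors, was at 181 and 190 FPKM in eKD2 and 91.4 and 90.7 in eKD1 (log2 difference 1.02, SE 0.0544, limma adjusted p = 0.0394), with 105 and 97.0 in control hypoxia.

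Promoter windows were found in RefSeq for 42 of the 49 genes, 59 windows in all because some genes have several. ACGTG or GCGTG on either strand occurred in 52.5% of these windows and in 48.4% of all 35116 promoter windows of the same length. Among genes that rose in hypoxia, 3 of 11 windows held these letters, among genes that fell 4 of 7, and among genes tested and not called 16 of 26. ACGTG alone occurred in none of the 11 and 7 windows of the genes called, in 7 of the 26 of genes tested and not called, and in 21.4% of all promoter windows. GGAAGGAA, a short run of the repeat unit that EWSR1-FLI1 is known to bind, occurred in 5.08% of the 59 windows and in 3.67% of all. One of the 3 windows is that of EFNA4 shown above, where it lies on the opposite strand as ttccttcc. These matches are descriptions of sequence, and binding was not measured here.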

How the data were processed

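The authors made poly-A selected, unstranded libraries, aligned single-end reads to GRCh37 with STAR and deposited 1 table of FPKM values from cufflinks and cuffnorm, whose scaling between libraries is not given in the sources used here. The study's count model could not be applied to FPKM, so limma was used. The sample titles gave the groups and replicate numbers. A gene was tested if it reached 1 FPKM in 2 or more of the 8 libraries (15372 of 60332, while 33177 were at 0 throughout). For each comparison, only its 2 groups of 2 libraries entered the fit to log2(FPKM + 1) with limma 3.58.1 in R 4.3.3 (eBayes with a variance trend, two-sided, Benjamini-Hochberg over all genes tested), with an adjusted p under 0.05 for a call. In a test on simulated data, the fit of eKD1 against control missed changed genes, so a gene not called there may still differ. No counting intervals were computed, since depth is unknown. With 2 libraries in a group, p-values rest on the spread between duplicates.

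The 49 genes and the other lists were chosen with earlier results of these data known. Values are given for every member called in at least 1 comparison. Where none was called, the 2 with the smallest unadjusted p in each direction are named, and of other pathway genes, up to 6 a comparison called with a log2 change of at least 1 in size. LOXHD1, CA9, VEGFA and HIF1A were fixed as further names. Other members, SEMA5B and cell markers were named after their values were seen. Gene positions and exon overlap come from GENCODE on GRCh37, which matched 59138 rows, and promoter sequences from RefSeq on GRCh38.p14. Alternatives changed the pseudocount, filter, scaling, variance model, genes tested, libraries and pairing.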

Additional observations from a re-analysis of the deposited data

Results flagged for a closer look

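SEMA4C, a membrane-bound semaphorin, lay on opposite sides of control hypoxia with the 2 guides. It was at 14.8 and 15.8 FPKM in control cells, 17.5 and 17.7 in eKD1 and 11.9 and 13.4 in eKD2, so that both eKD1 libraries lay above and both eKD2 libraries below both control libraries. The log2 change from control was 0.19 in eKD1 and -0.26 in eKD2. The direct log2 difference of eKD2 from eKD1 was -0.45 (SE 0.11, limma adjusted p = 0.141), which does not pass the threshold.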

How the results depend on the processing

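Every log2 change of a called member kept its direction under all alternatives run. Only the rescalings could have turned a direction, since the duplicates of the groups compared did not overlap in any called member. A pseudocount of 0.1, a mean of at least 5 FPKM and both rescalings left the 4 counts of called genes within 1.5 times. In hypoxia the count was 17, and 8 with no filter. In eKD1 it was 0, and 1 with a shared fit of all 8 libraries. In eKD2 it was 4, with 2 under no filter, 9 under a shared fit, 0 with no variance trend and 11 with protein-coding genes only, while 9.61% of all genes were called in the reported fit and 3.14%, 16.9%, 0.182% and 20.1% under these settings. Between eKD2 and eKD1 it was 0, with 2 under no filter, 5 under a shared fit and 3 with protein-coding genes only. The cause was not tested.

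Leaving out 1 library gave 0 to 0 calls in every 2-group fit, over all genes too, and a lone library is then assumed to vary like the other group. In the shared fit, an alternative chosen after seeing the data, leaving out 1 library also left a lone library in its group. Calls are therefore not read from these fits with 1 library left out. The direction of a called member could not turn there, for the reason given above.

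Replicate numbers are shared between groups, but same-numbered libraries deviated together with correlations of only -0.05 to 0.04 within the 4 comparisons. These correlations over all genes cannot tell whether same-numbered libraries were prepared together. With the replicate number as a block, 11 genes were called in hypoxia, with 16.7% of all genes called. The count was 0 in eKD1, in eKD2 and between eKD2 and eKD1, where no gene of the 15372 was called at all.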
